A study of Mus musculus with 26 samples.

Results

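Rmrp, Rpph1, Rn7sk, Terc, Malat1, Gas5, Snhg1 and Snhg3 are noncoding RNAs that are nuclear, lack a poly(A) tail, or carry small nucleolar RNAs in their introns, and they were followed here in total RNA from single blastomeres of mouse 8-cell embryos. The 8 genes were chosen by symbol from the 55487 genes of the deposited expression table, in which the 8 symbols correspond to 9 gene models. The study separated the chromatin and the RNA of the same cell (scRR-seq), so that the replication state of the genome and the transcriptome could be read together. The embryos were made by in vitro fertilisation from C57BL/6 mice, carried no labelled genetic change or treatment, and were dissociated by hand. Values were available for 9 cells, 3 of embryo 1 (cells 1, 6 and 7) and 6 of embryo 2 (cells 2, 3, 5, 6, 7 and 8), and the other 4 cells named in the labels were not analysed here. Each embryo was 1 biological replicate, the cells of an embryo shared 1 source, and therefore no test was made between embryos and no p-value is given.

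A further division ran across the embryos. Embryo 1 cell 1 and embryo 2 cells 2 and 3 have sample title numbers between 11 and 17, and the other 6 cells have numbers between 20 and 25. By the sample list published with the data, the former were made with the scRR3 version of the protocol and the latter with scRR1, which starts from a smaller volume of lysis buffer. The 2 ranges also differed over the whole transcriptome. In TPM, a transcript abundance scaled for length and to the same total in each cell, between 12411 and 13319 genes exceeded 1 in the 3 cells numbered 11 to 17, against 11058 to 11960 in the 6 cells numbered 20 to 25, and mitochondrial transcripts made up 5.98% to 6.82% and 4.28% to 18.2% of all TPM, respectively. All 8 early embryo markers listed, among them Dppa3 and Pou5f1, had mean levels above 1 TPM. The summed TPM of 6 cumulus and granulosa markers was at most 6.13, with Has2, Cyp19a1 and Amh listed at 0 in all 9 cells. Fibroblast markers summed to at most 8.62 and blood cell markers to at most 19.0, the latter nearly all from Cd68, and Dcn and Hbb-bs were listed at 0 throughout.

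The small RNAs and Malat1 lack the poly(A) tail on which many single-cell methods prime. Rmrp and Rpph1 are the RNA subunits of the related endonucleases RNase MRP, which acts on the ribosomal RNA precursor, and RNase P, which trims the 5′ ends of tRNAs. Rn7sk encodes 7SK RNA, which holds the transcription elongation kinase P-TEFb in an inactive particle, and Terc encodes the RNA template of telomerase. Malat1 is a long RNA of nuclear speckles whose 3′ end is made by RNase P cleavage instead of polyadenylation. Gas5, Snhg1 and Snhg3 are spliced, polyadenylated host genes: their introns are processed to small nucleolar RNAs, while the spliced RNAs of Gas5 and Snhg1 are known to be removed by nonsense-mediated decay. In scRR-seq the RNA is taken from the supernatant of a lysate whose chromatin stays on beads, and it is reverse transcribed with not-so-random primers that do not require a poly(A) tail. The study reported that part of the RNA, rich in long noncoding RNAs, stayed on the beads, and that RNAs missed by the method tended to be nuclear. The levels below are those of the supernatant, and how much of each RNA stayed on the beads was not tested.

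A few stretches of sequence show the features by which these RNAs work and where their gene models overlap others. Rmrp has 2 gene models on chromosome 4 of GRCm38 that differ only at their ends. The longer, given first with its extra bases in capitals, extends from chr4:43492783-43493063 on the minus strand and contains the shorter model whole. In the 5′ part of Rn7sk (chr9:78175537-78175633, minus strand) the capitals mark the 3 GATC repeats, which lie in the stem where the inhibitor Hexim1 binds. In Terc (chr3:96414780-96414859, minus strand) they mark CTAACCC, the template for the telomere repeat, at bases 29 to 35. In Rpph1 (chr14:50807668-50807767, minus strand) they mark where an exon of the protein-coding gene Ccnb1ip1 on the same strand begins to overlap. In Malat1 (chr19:5795912-5796089, minus strand) they mark the A-rich tract of 18 bases that is encoded in the genome and ends the mature RNA after cleavage.
Rmrp, long model: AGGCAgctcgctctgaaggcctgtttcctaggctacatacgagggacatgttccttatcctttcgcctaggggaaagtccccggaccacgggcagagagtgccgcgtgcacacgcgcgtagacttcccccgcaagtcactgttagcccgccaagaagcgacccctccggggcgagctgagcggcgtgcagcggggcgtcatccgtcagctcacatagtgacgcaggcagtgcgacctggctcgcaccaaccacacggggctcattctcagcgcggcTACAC
Rn7sk, bases 1 to 97: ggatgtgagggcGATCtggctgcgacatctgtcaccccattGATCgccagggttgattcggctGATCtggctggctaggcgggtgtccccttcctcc
Terc, bases 1 to 80: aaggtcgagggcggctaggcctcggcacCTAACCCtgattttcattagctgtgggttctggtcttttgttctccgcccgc
Rpph1, bases 1 to 100: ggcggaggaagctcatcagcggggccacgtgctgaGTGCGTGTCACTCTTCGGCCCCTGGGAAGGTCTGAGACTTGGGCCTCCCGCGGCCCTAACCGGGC
Malat1, bases 6584 to 6761: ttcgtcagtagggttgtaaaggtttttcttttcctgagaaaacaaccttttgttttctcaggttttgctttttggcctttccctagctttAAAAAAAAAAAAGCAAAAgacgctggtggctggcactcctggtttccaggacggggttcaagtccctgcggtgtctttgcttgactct

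Rn7sk was by far the most abundant of the 8 RNAs. Its level was 4506, 2819 and 3152 TPM for cells 1, 6 and 7 of embryo 1. For cells 2, 3, 5, 6, 7 and 8 of embryo 2 the levels were 4809, 3669, 1131, 3319, 2322 and 1966 TPM, and values of the other RNAs follow this order of cells. The mean of 3077 ± 1179 TPM (SD, n = 9 cells) placed it 36th of the 55487 genes, and embryo 2 cell 5, the lowest, was also the cell with the largest mitochondrial share (18.2%). A comparison of the transcript sequences found 205 other transcripts with similarity to Rn7sk, of which the 195 from unnamed Gm genes summed to 20.9 TPM on average, so that nearly all of the signal was assigned to the named gene.

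Rmrp and Rpph1, the sister RNAs, were lower by more than an order of magnitude. The levels of Rmrp were 127, 29.0 and 77.8 TPM for embryo 1, against 98.3, 43.3, 12.8, 36.7, 38.0 and 14.8 TPM for embryo 2. The levels of Rpph1 were 50.4, 200.3 and 154 TPM for embryo 1, against 50.5, 194, 70.2, 120, 111 and 122 TPM for embryo 2. The 2 cells with the most Rmrp, embryo 1 cell 1 and embryo 2 cell 2, were the 2 with the least Rpph1. All of the Rmrp signal was assigned to the shorter model of 271 bases, and the longer model of 281 bases was listed at 0 in all 9 cells. The models differ only by 5 bases at each end, reads from them can hardly be told apart, and the 2 were summed. Of the 319 bases of Rpph1, 233 coincide with an exon of Ccnb1ip1, which had 6.96 to 112 TPM, and how reads were divided between these genes was not tested.

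Terc was listed at 0 TPM in all 9 cells. Its protein partner Tert, the reverse transcriptase subunit of telomerase, had 0.44 to 6.61 TPM. A zero in an RSEM table is not a measured absence: the Y RNA gene Rny3 and the U7 gene Rnu7, which also encode short structured RNAs, were at 0 in every cell, as were 1324 of 1507 annotated small nucleolar RNA genes (87.9%) and 19 of 22 ribozyme genes. Rmrp and Rpph1 were 2 of the 3 ribozyme genes with a mean above 1 TPM. The model of Terc, at 423 bases, is longer than those of Rmrp (271 bases), Rpph1 (319 bases) and Rn7sk (331 bases). These 3 shorter RNAs were above 0 in all 9 cells, and why Terc was at 0 was not tested.

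Among the long RNAs, Gas5 was the most abundant and the least variable. Its levels were 655, 969.8 and 854 TPM for embryo 1, against 713, 970.2, 948, 1045, 851 and 926 TPM for embryo 2, a coefficient of variation of 14.5%. Those of Snhg1 were 186, 349 and 298 TPM, against 279, 288, 433, 495, 429.6 and 491 TPM for embryo 2. Every cell of embryo 2 with a title number of 20 or more was above every cell of embryo 1. Malat1 had 123, 463 and 122 TPM for embryo 1, against 161, 135, 148, 272, 226 and 136 TPM for embryo 2. Its level in embryo 1 cell 6 was 463 TPM, while no other cell exceeded 272 TPM. Snhg3 had 18.7, 66.2 and 20.2 TPM for embryo 1, against 12.2, 31.6, 17.4, 0.13, 43.4 and 27.8 TPM for embryo 2. It was highest in the same cell as Malat1 and close to 0 in embryo 2 cell 6.

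**Figure D1:**
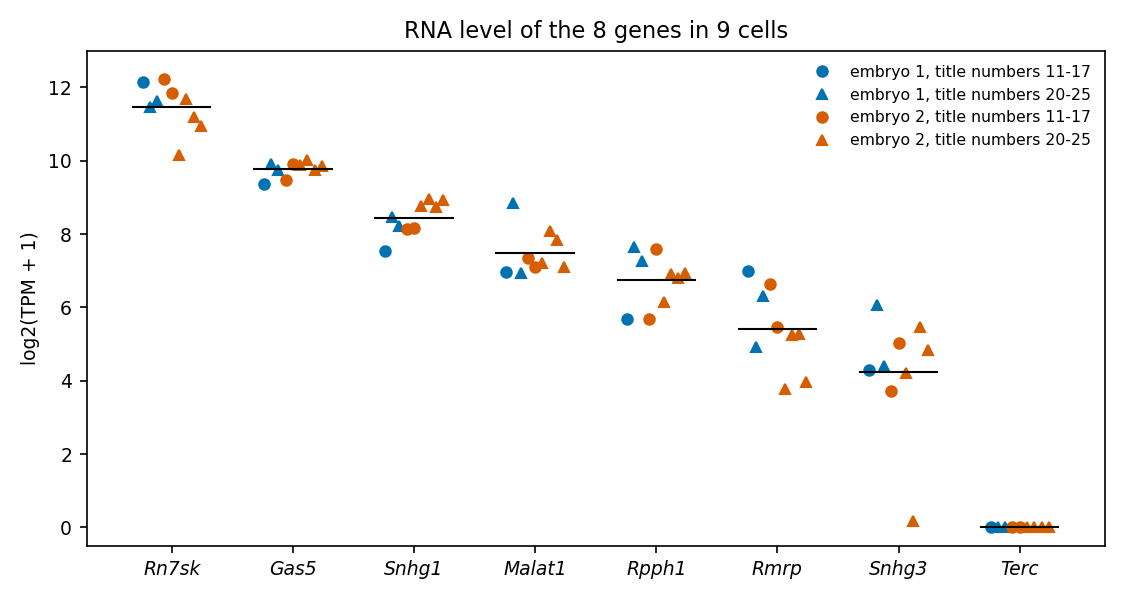
Level of each of the 8 RNAs as log2(TPM + 1) in the 9 cells, with colour for the embryo, shape for the range of title numbers and a black line for the mean over cells. The means fall from Rn7sk (3077 TPM) through Gas5 (881 TPM) to Snhg3 (26.4 TPM), and Terc is at 0 in all cells.

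The order of the levels was firm at the top and loose below. Rn7sk exceeded Gas5 in 9 of 9 cells, by 1.70 ± 0.78 log2 units (SD over cells), and Gas5 exceeded Snhg1 in 9 of 9 cells, by 1.33 ± 0.33. Snhg1 exceeded Malat1 in 8 of 9 cells, by 0.95 ± 0.64. Malat1 exceeded Rpph1 in 7 (0.74 ± 0.77) and Rpph1 exceeded Rmrp in 7 (1.35 ± 1.54), and both of these gaps were smaller than their spread. Rmrp and Snhg3 exchanged places freely, Rmrp being higher in 5 of 9 cells. At a detection threshold of 1 TPM, 6 genes were detected in all 9 cells, Snhg3 in 8 and Terc in none. The 8 genes together contributed 0.472% ± 0.106 of all TPM (SD, n = 9; range 0.276% to 0.612%), of which Rn7sk alone made up 41.0% to 79.5%.

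The first comparison asked whether the embryos, which differed in replication, also differed in these RNAs. In embryo 1, 0.00385% to 3.54% of the 40 kb bins with a state were replicated, against 62.4% to 80.5% in the cells of embryo 2. Embryo and S-phase state divided the cells identically and cannot be told apart. Of the 7 genes with a mean above 1 TPM, the cells of the embryos overlapped for all 7, whereas 3.35% of the 13648 genes with a mean above 1 TPM did not overlap. On the scale of mean log2(TPM + 1), 2 of the 7 differed by at least 1 between embryos, beside 18.4% of all genes. These were Rmrp (-1.0, embryo 2 minus embryo 1, with a pooled SD between cells of 1.06) and Snhg3 (-1.01, SD 1.72), both at the threshold and both smaller than the spread between cells. For Rmrp the difference was -0.95 within title numbers 11 to 17 and -1.03 within 20 to 25, and without single cells it ranged from -1.59 (embryo 1 cell 6 left out) to -0.54 (embryo 1 cell 1 left out). The Snhg3 value was -0.27 without embryo 2 cell 6, at 0.13 TPM, and -0.44 without embryo 1 cell 6, at 66.2 TPM, and the median over cells gave 0.12 in the other direction. The remaining differences were -0.40 for Rn7sk, -0.19 for Rpph1, -0.14 for Malat1, 0.15 for Gas5 and 0.54 for Snhg1, and the median of the 7 was -0.19, beside -0.039 for all genes. Without single cells the Rn7sk value ranged from -0.58 (embryo 2 cell 2 left out) to -0.16 (embryo 2 cell 5 left out). The other small values depended on 1 cell for their sign: leaving out embryo 1 cell 6 gave 0.21 for Rpph1, 0.49 for Malat1 and 0.27 for Gas5. Leaving out embryo 1 cell 1 gave -0.78 for Rpph1, -0.46 for Malat1 and -0.012 for Gas5. Snhg1 was the only one of these 5 whose difference exceeded its pooled SD (0.40), with 0.60 and 0.51 within the lower and upper title numbers, but without embryo 1 cell 1 it was 0.28, below that SD.

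The second comparison set the 6 cells numbered 20 to 25 against the 3 numbered 11 to 17, across both embryos. Rn7sk and Snhg1 separated these cells completely and in opposite directions. Rn7sk was at 3669 to 4809 TPM in the cells numbered 11 to 17 and at 1131 to 3319 TPM in the cells numbered 20 to 25. Snhg1 was at 186 to 288 TPM in the former and 298 to 495 TPM in the latter. In mean log2(TPM + 1), cells 20 to 25 were lower by 0.90 for Rn7sk (pooled SD 0.50) and higher by 0.73 for Snhg1 (SD 0.31). In both embryos the sign was the same, with -0.60 and -1.05 for Rn7sk and 0.79 and 0.70 for Snhg1 in embryos 1 and 2. A lack of overlap was found for 2 of the 7 genes and for 7.36% of all genes. The distribution of all genes was itself shifted towards lower values in the cells numbered 20 to 25 (median -0.29). After centring each cell on its median gene, which moved differences by 0.22, Snhg1 still did not overlap (0.96), whereas Rn7sk remained lower (-0.67) but overlapped.

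**Figure D2:**
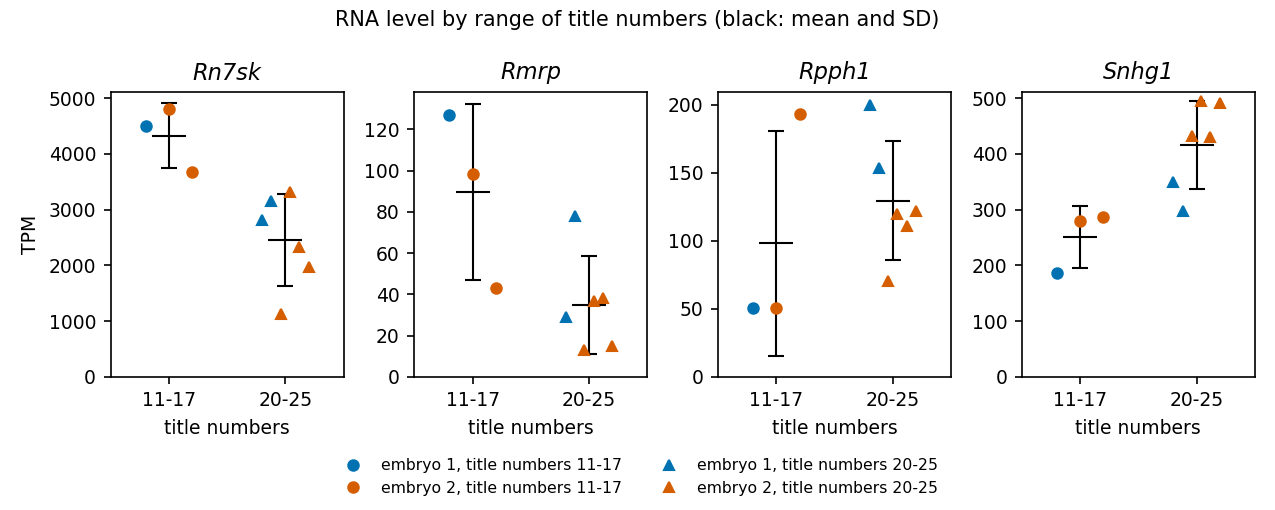
TPM of Rn7sk, Rmrp, Rpph1 and Snhg1 in the 3 cells with title numbers 11-17 and the 6 cells with 20-25; points are cells and black bars are means with SD, on linear axes from 0. Rn7sk (3669 to 4809 against 1131 to 3319 TPM) and Snhg1 (186 to 288 against 298 to 495 TPM) do not overlap, and Rmrp and Rpph1 do.

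Rmrp was lower by 1.45 in the cells numbered 20 to 25 (pooled SD 0.89), and it was the single gene of the 7 past 1 log2 unit, beside 20.8% of all genes. The difference was -1.40 in embryo 1 and -1.48 in embryo 2, but the groups overlapped because embryo 1 cell 7 had 77.8 TPM and embryo 2 cell 3 had 43.3 TPM. Rpph1 was higher by 0.63 (SD 0.73), Malat1 by 0.55 (SD 0.63) and Gas5 by 0.28 (SD 0.19). The Malat1 value was 0.31 without embryo 1 cell 6, and that of Gas5 lay between 0.16 (embryo 1 cell 1 left out) and 0.44 (embryo 2 cell 3 left out). For Rpph1 the difference was 1.78 in embryo 1 and 0.060 in embryo 2, and over both embryos it was 1.27 without embryo 2 cell 3 and 0.31 without either of the other cells numbered 11 to 17. Snhg3 differed by -0.15, far inside its spread (SD 1.80) and with opposite signs in the embryos. The median over the 7 genes was 0.28, beside -0.29 for all genes. Embryo and title number overlap only in part, since 1 of the 3 cells of embryo 1 and 2 of the 6 cells of embryo 2 carry the lower numbers, and the title numbers coincide with the protocol version in the study's sample list, so that these cannot be told apart from each other.

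**Figure D3:**
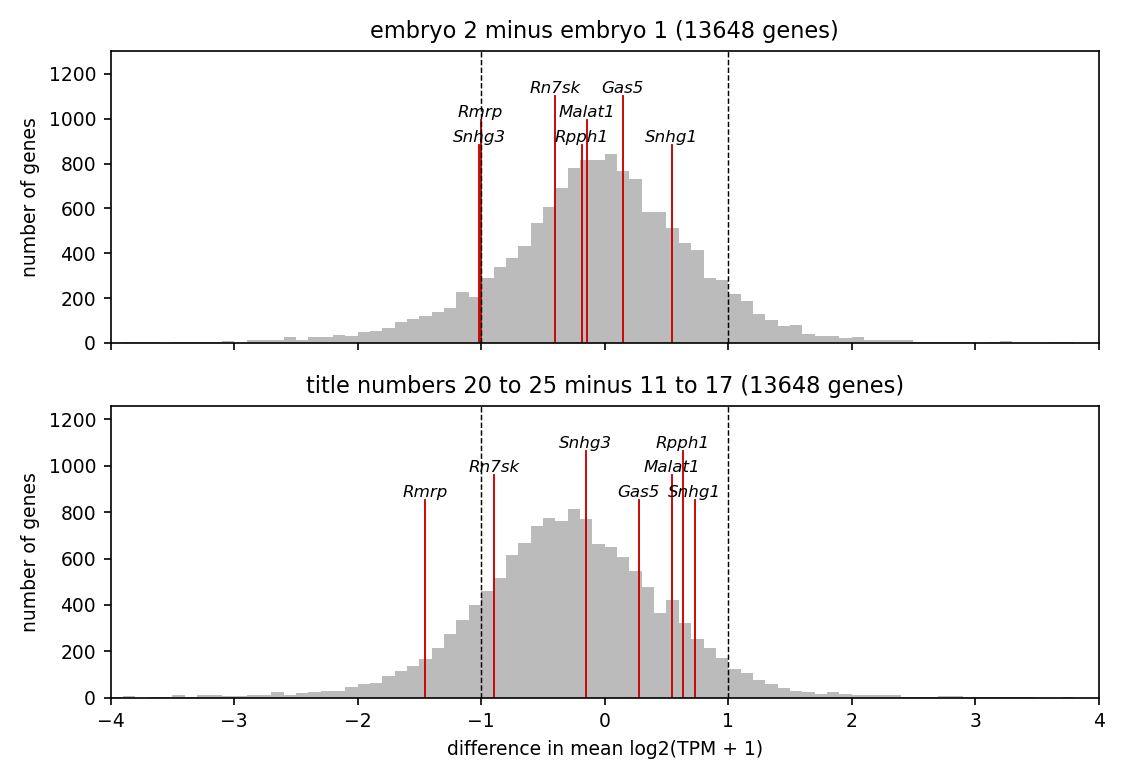
Difference in mean log2(TPM + 1) for 13648 genes (grey histogram, bins of 0.1) between embryos (top) and between ranges of title numbers (bottom), with the 7 genes above 1 TPM as red lines and dashed lines at a difference of 1. Rmrp and Snhg3 lie at -1.0 and -1.01 in the top panel, and Rmrp lies at -1.45 in the bottom panel, where the histogram is centred below 0.

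The small RNAs did not share one profile. Across the 9 cells, Rn7sk and Rmrp varied together (Pearson r = 0.88 of log2(TPM + 1), and 0.92 in the 6 cells of embryo 2), while Rpph1 followed neither (-0.11 with Rn7sk and -0.34 with Rmrp). All 3 are transcribed by RNA polymerase III from promoters upstream of the gene. Snhg1 varied against Rmrp (r = -0.82) and with Gas5 (r = 0.76), and Gas5 varied about as closely with Rpph1 (r = 0.74). After removing the mean of each range of title numbers, the value for Gas5 with Rpph1 was 0.68. The other values were then 0.79 for Rn7sk with Rmrp, -0.66 for Snhg1 with Rmrp and 0.57 for Gas5 with Snhg1. They describe 9 cells whose values share a library and a fixed total, and no test was made.

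The ratio of Rpph1 to Rmrp expressed this most directly. It was 0.397 in embryo 1 cell 1 and 0.514 in embryo 2 cell 2, the only cells with more MRP RNA than RNase P RNA. It was 1.98 to 8.27 in the other 7 cells, including 4.47 in embryo 2 cell 3, which has a title number in the lower range. The ratio therefore did not follow the title numbers in every cell. The ratio of Rn7sk to Snhg1 was 12.8 to 24.2 in the 3 cells numbered 11 to 17 and 2.62 to 10.6 in the other 6, which follows from the separate levels of both genes and adds nothing to them.

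**Figure D4:**
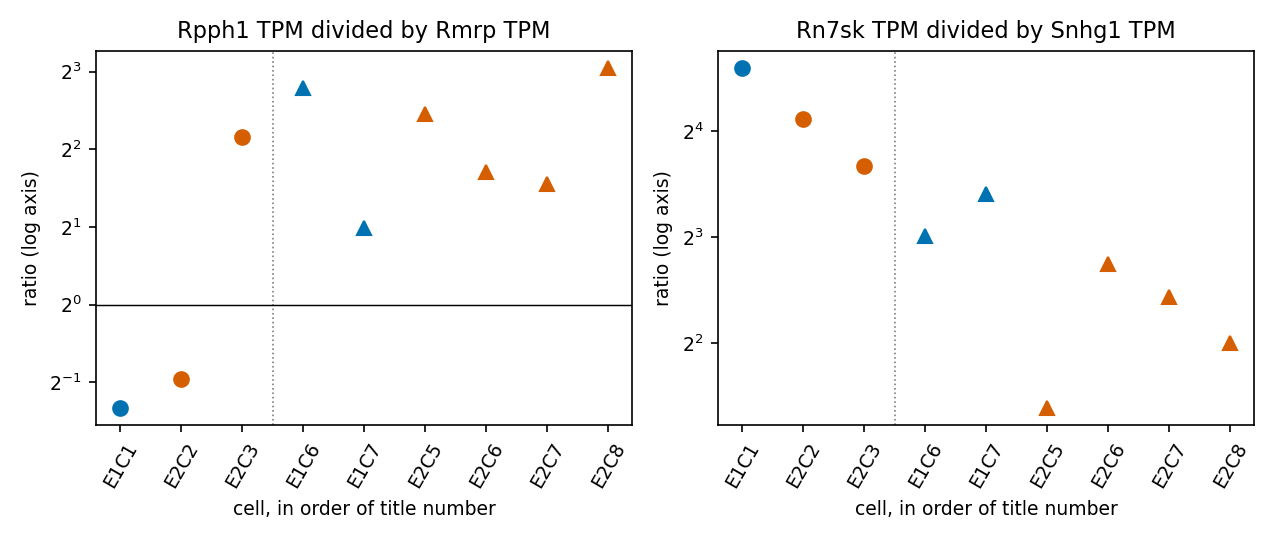
Ratio of Rpph1 to Rmrp (left, line at 1) and of Rn7sk to Snhg1 (right) in each cell on log axes, with cells in order of title number (E1C1 is embryo 1 cell 1), blue for embryo 1, orange for embryo 2, and a dotted line between the ranges 11-17 and 20-25. The left ratio runs from 0.397 to 8.27 with 2 cells below 1, and the right ratio is 12.8 to 24.2 before the dotted line and 2.62 to 10.6 after it, as the levels of both genes already fix.

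The host genes were read mostly from a few of their many annotated transcripts. Gas5 has 25 transcript models, and Gas5-224, a spliced RNA of 502 bases, led in every cell with 48.8% ± 10.2 of the gene's TPM (SD, n = 9; range 33.7% to 64.6%). Models annotated as retaining an intron, 20 in number, took 39.3% ± 13.8. Snhg1 has 18 models, of which the spliced Snhg1-211 took 42.5% ± 21.5, from 0% in embryo 1 cell 6 to 76.8% in embryo 1 cell 1, and the 14 retained-intron models took 43.1% ± 16.7. The retained-intron share of Snhg1 averaged 28.3% in the cells numbered 11 to 17 and 50.5% in those numbered 20 to 25, with overlap (21.6% to 41.3% and 29.9% to 70.6%). Short reads were divided by RSEM among models that share most of their exons, and the shares carry that uncertainty. The study also reported that coverage by scRR1 in embryos leaned towards the 3′ end of RNAs. By its sample list, the cells numbered 20 to 25 were made with that version. How far this affected the shares of the models was not tested.

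**Figure D5:**
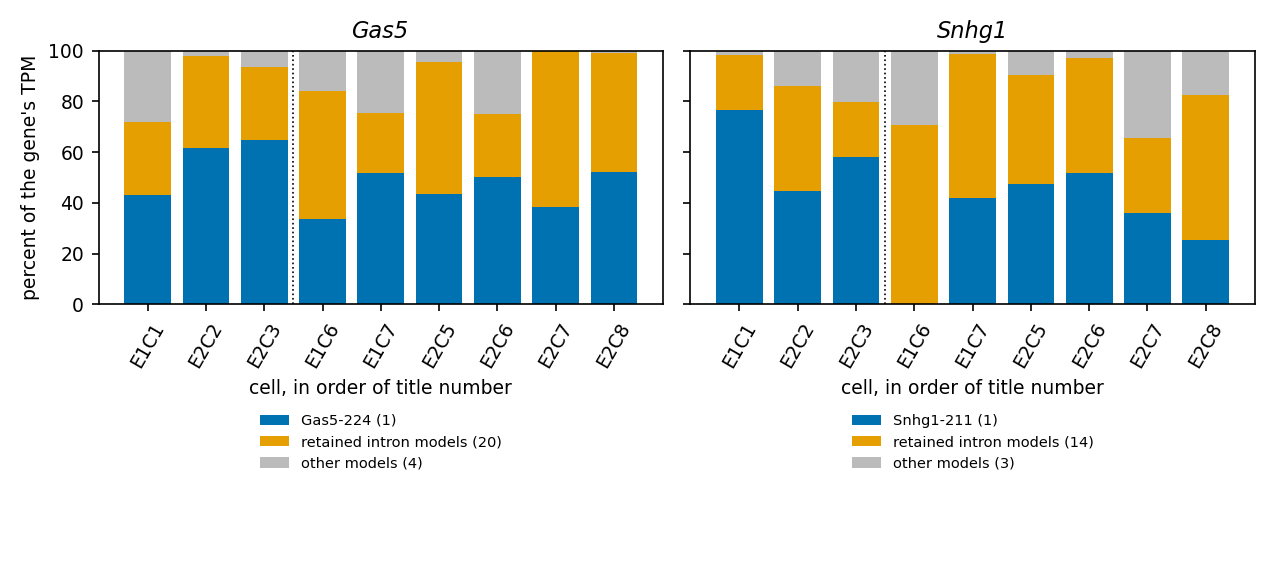
Percent of each gene's TPM assigned to the leading spliced model (blue), to models annotated with a retained intron (orange) and to the other models (grey), with the number of models in brackets, for Gas5 and Snhg1 in each cell in order of title number. Gas5-224 holds 33.7% to 64.6% in every cell, whereas Snhg1-211 runs from 0% to 76.8%.

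Malat1 was assigned chiefly to its full-length model of 6983 bases, with 75.2% ± 19.8 of the gene's TPM (range 43.4% to 100%). This model continues for 292 bases beyond the A-rich tract shown above. Other annotated genes lie inside it. Gm37376, annotated on the opposite strand over 453 bases, had 27.3 to 535 TPM, with its highest value in embryo 1 cell 6, where Malat1 was also highest. Gm27694, a short RNA of 86 bases on the same strand, reached 306, 684 and 960 TPM for cells 6, 7 and 8 of embryo 2 and was listed at 0 elsewhere. Whether strand was used in counting is not given in the sources used here, so reads of Malat1 and Gm37376 cannot be told apart. Gm27694 lies wholly inside Malat1 on its strand, so its reads cannot be told from those of Malat1 with or without strand. Snhg3 lies almost wholly within the annotated span of the protein-coding gene Rcc1 on the same strand (28.6 to 97.8 TPM), which encodes the chromatin-bound exchange factor for Ran.

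The small nucleolar RNAs inside the hosts were listed at 0 in many cells, unlike the hosts themselves. They lie within their hosts on the same strand, and retained-intron models of Gas5 and Snhg1 extend over many of them. How reads were divided between host and small RNA was not tested. Those inside Gas5 span only 60 to 84 bases, a length at which each read weighs heavily in TPM. Of the 10 annotated inside Gas5 on its strand, 6 exceeded 1 TPM in at least 1 cell and 4 were listed at 0 throughout. Snord78 was above 0 in 4 cells (26.1 TPM in embryo 1 cell 1, and 13.2, 467 and 339 TPM in embryo 2 cells 2, 5 and 6), and Gm23212 and Gm22357, each also in 4 cells, reached 619 and 235 TPM. Gm25789 was above 0 in 4 cells, with a highest value of 330 TPM, and Snord47 and Mir5117 each in 1 cell, at 14.6 and 32.5 TPM. No cell showed all of them, although every cell had at least 655 TPM of Gas5. Of the 8 inside Snhg1, 5 exceeded 1 TPM somewhere. Snord22 was above 0 in 6 cells at up to 22.1 TPM and Gm24452 in 4 at up to 92.5 TPM. Gm22744 was seen in all 3 cells numbered 11 to 17 (160, 174 and 162 TPM) and was listed at 0 in all 6 others, while Gm25855 and Gm23246 were above 0 in 2 cells and 1 cell. Snhg3 hosts a pair of H/ACA RNAs, of which Snora73b, 205 bases long, was present in all 9 cells at 12.8 to 66.7 TPM. Its mean of 41.0 TPM was above that of its host (26.4 TPM), and embryo 2 cell 6, where Snhg3 was at 0.13 TPM, had 56.4 TPM of Snora73b. Snora73a was above 0 in 4 cells, at up to 22.4 TPM.

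The start regions of the 2 abundant hosts were compared because Gas5 and Snhg1 varied together across cells (r = 0.76). Gas5 varied about as closely with Rpph1 (r = 0.74), for which no start region was available. Whether the start regions relate to the levels across cells was not tested. RefSeq (GRCm38.p6) promoter windows matched 4 of the 8 symbols, namely Gas5 with 2 starts, Snhg1, Snhg3 and Malat1. Each line below gives 50 bases on either side of an annotated start, so that base 51 is the first transcribed base. Capitals mark the letters TATA, which read the same on both strands, between 40 and 16 bases before the start, and the longest run of C or T within 10 bases before and 30 bases after the start on the transcribed strand. Runs of pyrimidines at the very start are known as 5′ terminal oligopyrimidine tracts and are typical of ribosomal protein genes and of these hosts.
Gas5, chr1:161035116-161035215, plus strand: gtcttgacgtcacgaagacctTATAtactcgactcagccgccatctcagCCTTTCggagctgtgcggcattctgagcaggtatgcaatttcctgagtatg
Snhg1, chr19:8723437-8723536, plus strand: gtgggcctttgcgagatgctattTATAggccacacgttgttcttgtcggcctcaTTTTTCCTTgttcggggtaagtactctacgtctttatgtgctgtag

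TATA was found in these 2 windows, 29 bases before the start in Gas5 and 27 in Snhg1, and in 5.91% of the 32851 windows of the table. It was not found at this distance in the windows of Snhg3 and Malat1 or at the other start of Gas5. The pyrimidine run was 9 bases long in Snhg1, a length reached in 9.17% of all windows, and 6 bases long in Gas5, reached in 35.2%. Relative to the first transcribed base, the run began at -1 in Gas5 and at 4 in Snhg1. The run of Snhg1 therefore began after the annotated start and not at it.

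All 8 genes lay in regions that were scored as replicated in most cells of embryo 2 and in none of embryo 1. The scores of embryo 1 do not show that these regions were unreplicated, since its cells can have been in G1 or in G2/M. Over the 6 cells of embryo 2, 45 of 48 gene and cell combinations were replicated (93.8%), against 75.1% over all 40 kb bins. All bins include those without any expressed gene, and the share over bins with expressed genes was not computed. Whether these 8 genes differ from other expressed genes was therefore not tested. Rpph1, Terc, Gas5, Snhg1 and Snhg3 were replicated in 6 of 6 cells, as were 48.7% of the bins that had a state throughout embryo 2. Rmrp, Rn7sk and Malat1 were unreplicated in 1 cell, embryo 2 cell 6, which had the lowest share of replicated bins of the 6 (62.4%). In that cell Rmrp (36.7 TPM) and Rn7sk (3319 TPM) were within the range of the 5 cells with a replicated copy, and Malat1 (272 TPM) was above it (135 to 226 TPM).

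Genes for proteins that work with these RNAs were present throughout. Of 75 genes in 7 lists of partners, 73 had a mean above 1 TPM. Between embryos 1 of the 73 passed 1 log2 unit, beside 18.4% of all genes, and between ranges 9 of the 73 did, beside 20.8%. The cells did not overlap for 1 of the 73 between embryos, beside 3.35% of all genes, and for 10 of the 73 between ranges, beside 7.36%. Among the 11 RNase P and RNase MRP proteins, Pop5 (121 TPM), Rpp21 (109 TPM) and Rpp30 (90.3 TPM) were the most abundant. Rpp25 was lower by 1.52 in embryo 2 and Pop1, the large shared subunit, lower by 1.12 in the cells numbered 20 to 25. In the 7SK particle, Ccnt1 (64.4 TPM), the cyclin T1 of P-TEFb, led, followed by the 7SK-binding protein Larp7 (37.7 TPM) and the kinase Cdk9 (27.8 TPM). The 7SK capping enzyme Mepce (13.3 TPM) was lower by 1.27 in the cells numbered 20 to 25, with overlap. It was the only gene of this list past 1 log2 unit between ranges. The median of the 6 genes of the list above 1 TPM was -0.052, beside -0.29 for all genes, so the list as a whole was not lower in those cells. Of 22 RNA polymerase III and SNAPc genes above 1 TPM, the largest levels were those of the shared subunits Polr1c (166 TPM) and Polr1d (164 TPM). The octamer factor Pou2f1 and the SNAPc subunit Snapc1, which act at promoters of this class, were lower by 1.22 and 1.02 in the cells numbered 20 to 25, with overlap for both. Each had a cell near the floor, with 0.11 TPM of Pou2f1 in embryo 2 cell 6 and 0.67 TPM of Snapc1 in embryo 2 cell 7. The median of the 22 genes was -0.23, beside -0.29 for all genes, so the list as a whole was no lower than all genes.

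Among the genes for telomerase and H/ACA proteins, those for H/ACA proteins had the highest levels. Gar1 had 281 TPM, Nhp2 241 TPM and dyskerin (Dkc1) 132 TPM on average, and the assembly factor Naf1 was higher by 1.23 in the cells numbered 20 to 25. Of 10 nonsense-mediated decay factors, Upf1 and Smg5 were lower by 1.41 and 1.09 in those cells and Smg1 by 0.997, and these 3 genes did not overlap between the ranges, as was the case for 7.36% of all genes. Across the 10 the median was -0.39, beside -0.29 for all genes. The box C/D proteins Snu13 (431 TPM), Nop58 (400.3 TPM) and Nop56 (271 TPM) showed no difference past 1. Among Malat1 processing and speckle proteins, Srsf2 (934 TPM), Srsf3 (581 TPM) and Srsf1 (219 TPM) led. Srsf3 was higher by 1.57 in the cells numbered 20 to 25 and Srrm2 lower by 1.23, without overlap for either.

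Related noncoding RNAs differed in both directions. Of 42 listed, 37 were found and 26 had a mean above 1 TPM. Between embryos 5 of the 26 passed 1 log2 unit and none of the 26 separated the cells, beside 18.4% and 3.35% of all genes. Between ranges 5 passed and 1 separated the cells, beside 20.8% and 7.36%. That gene was Snhg5, another host, at 122 to 169 TPM in the cells numbered 11 to 17 and 247 to 461 TPM in the others (difference 1.21). Snhg14 (1910 TPM) and Zfas1 (169 TPM), the other hosts with the largest means, differed by 0.30 and 0.21, whereas Snhg9 was lower by 2.17 in the cells numbered 20 to 25 and Snhg11 lower by 1.42 in embryo 2. The 7SL genes Rn7s1 and Rn7s2, RNAs of the signal recognition particle, had identical values in every cell (1786 to 4757 TPM), as near-identical copies between which reads cannot be divided. Each had a mean of 3324 TPM, but the 2 values share the signal of 7SL RNA between them. The 7SL level as a whole was therefore above either value, and above the mean of Rn7sk. Rn7s1 and Rn7s2 differed by -0.37 between ranges, with overlap. Rn7s6 was lower by 1.24 in the cells numbered 20 to 25, and the minor spliceosome RNAs Rnu11 and Rnu12 were above 0 in 3 cells each. The nuclear long RNAs 2900097C17Rik (82.7 TPM), Tug1 (24.9 TPM), Pvt1 (12.7 TPM) and Neat1 (12.2 TPM) were all below Malat1, and Neat1, the scaffold of paraspeckles, was higher by 1.26 in the cells numbered 20 to 25.

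The genes with the most similar profile over the 9 cells, by Pearson r of log2(TPM + 1) among 13647 genes, were different for each RNA. For Rn7sk they were Rab3il1 (r = 0.95) and the ribosomal protein gene Rps10 (0.95), and for Rmrp the phosphatase subunit Ppp6r1 (0.96) and the nuclease subunit Eme2 (0.95). For Rpph1 they were the mitochondrial deoxyguanosine kinase Dguok (0.94) and the histone methyltransferase Ezh2 (0.91), and for Malat1 Nudt6 (0.97) and Gm38642 (0.92). For Gas5 they were Rpia (0.96), of the pentose phosphate pathway, and the histone methyltransferase Setd2 (0.91). For Snhg1 they were Gm3106 (0.97) and Plekhf2 (0.95), and for Snhg3 Epm2aip1 (0.96) and Ppp1r15b (0.95). Each pair was picked as the highest of 13647 values from 9 cells, and nothing further was read from it.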

How the data were processed

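RNA and DNA were read from the same single cells. For the RNA the authors used ramdaq, with alignment to mm10, GENCODE vM25 and RSEM, on reads reduced to a common number, and deposited TPM per gene and per transcript. TPM keep no read depth, so no depth, counting interval or limit of detection per cell can be given, and RSEM corrects for effective length, which weighs most on RNAs as short as these. For the DNA the authors deposited a score of 1 (replicated), -1 (unreplicated) or 0 per 40 kb bin, after alignment with BWA 0.7.17-r1188 per the labels. RNA columns were assigned to samples by their closing number; 14 columns in each of the 3 tables belong to other samples and were not used.

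From there, symbols and positions came from GENCODE M21 (GRCm38), in which 55141 of 55487 gene identifiers were found. Differences are of mean log2(TPM + 1), with a pseudocount of 1, over 13648 genes with a mean above 1 TPM, and 1 log2 unit was the size counted. With 1 embryo per state no test was possible, and means, SDs over cells and overlap are given. The spread is therefore between cells of the same embryo. Named genes were all 8 members, the 3 most abundant of each partner or related list with those past 1 log2 unit (at most 5 a list), small nucleolar RNAs inside the hosts above 1 TPM in any cell, and the 2 most similar profiles per member. A few genes that this rule names are not reported here. Members and lists were chosen with earlier results of these data known. Alternatives were other pseudocounts, scalings, medians, filters, within-group values and leaving out each cell. The computation of differences was tested on simulated data with known changes. Sequence similarity was searched with blastn. Python 3 scripts used pandas and numpy.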

Additional observations from a re-analysis of the deposited data

Results flagged for a closer look

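Rmrp in embryo 2 cell 2, at 98.3 TPM, stood apart from the other 5 cells of embryo 2, which had 12.8 to 43.3 TPM. On the linear TPM scale its gap to the next cell was 0.644 of the whole range, above the critical value of 0.625 for 6 cells. Of 9 measures examined in this way it was the only one, and chance alone marks about 1 in 20 such groups. The critical value assumes independent replicates, which cells of 1 embryo are not, so the flag is a description only. The gap was not examined on the log2(TPM + 1) scale used for the differences. Embryo 2 cell 2 also had the highest Rn7sk (4809 TPM) and a title number between 11 and 17.

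Rpph1 differed between embryos in opposite directions in the 2 ranges of title numbers. In the cells numbered 11 to 17 it was higher in embryo 2 (50.5 and 194 TPM) than in the single cell of embryo 1 (50.4 TPM), a difference of 0.96 in mean log2(TPM + 1). In the cells numbered 20 to 25 it was lower in embryo 2 (70.2 to 122 TPM) than in embryo 1 (154 and 200 TPM), a difference of -0.76. The first of these includes a pair of cells at almost the same value, and the difference between the ranges was not tested.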

How the results depend on the processing

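The number of members past 1 log2 unit between embryos, 2 in the report, was 0 with a pseudocount of 10, 0 without mitochondrial genes, 0 with each cell centred on its median gene and 0 within title numbers 11 to 17. It was 1 with medians of cells and 1 to 2 when each cell was left out, with 1 in all cases other than without embryo 2 cell 3 or cell 7; the Rmrp difference was smaller than 1 without embryo 1 cells 1 or 7 or embryo 2 cells 5 or 8. Between ranges of title numbers the number, 1 in the report, was 2 with medians of cells, 2 within embryo 1 and 2 within embryo 2, and 1 to 3 when each cell was left out (3 without embryo 2 cell 3, 2 without embryo 2 cell 6). The difference of Snhg3 between embryos, -1.01, was 0.12 with medians of cells and 0.079 within title numbers 11 to 17, and it was -0.27 without embryo 2 cell 6, the cell at 0.13 TPM. The share of all genes past 1 log2 unit was 4.83% without a filter and 34.2% with a pseudocount of 0.1 between embryos (18.4% in the report), and 5.57% and 36.4% between ranges (20.8%). The median differences, the summed share of TPM, the number of detected members and the share of replicated loci moved by less than the spread between cells, or by less than 1.5 times, under every alternative run. For the differences of single members and the shares of all genes, 222 alternative values moved by less than 1 SD between cells (or 1.5 times for the shares), 8 moved further, and of the differences past 1 log2 unit 2 values, both of Snhg3, changed sign. Differences smaller than 1 also changed sign inside that SD when each cell was left out: between embryos Malat1 ran from -0.46 to 0.49, Rpph1 from -0.78 to 0.21 and Gas5 from -0.012 to 0.27, and between ranges Snhg3 ran from -0.53 to 0.65. The median difference between embryos, -0.19, was small enough to change sign as well, from -0.46 to 0.21 when each cell was left out. No paired analysis was possible because the replicate numbers in the labels name single cells, no test was made, and a cell of one embryo has no partner in the other. TPM carry no depth, so how much of the spread of Snhg3, Rmrp and the small nucleolar RNAs is counting error was not tested.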
